A study of Homo sapiens with 11 samples.

Results

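The genes described here encode components of epithelial cell junctions: the claudins CLDN1, CLDN2, CLDN3, CLDN4, CLDN7 and CLDN12, the tight junction proteins OCLN, F11R and TJP1, and the adhesion protein CDH1. They were picked by name, matched on the gene symbol, and are 10 of the 23608 genes with a value. A549 is an established human lung adenocarcinoma line. The groups were A549 cells given cigarette smoke condensate (CSC, the condensed particles of smoke) for 48 hours (3 libraries) or 2 weeks (3 libraries), and cells given its vehicle DMSO for 48 hours (2 libraries, replicates 2 and 3) or 2 weeks (3 libraries). The CSC dose is written as 20 µM in the labels, although a mixture has no molar concentration, and the labels name no genetic change in any group.

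All values are FPKM, fragments per kilobase of transcript scaled to library size, as the authors deposited them, from RNA depleted of ribosomal RNA. Sums over all genes lay between 338507 and 484053, and the read depth is unknown. The width of the authors' bounds puts CSC 2 weeks replicate 2 at 2.69 times the depth of the shallowest library and the other 10 libraries within 1.37 times of it. In CSC 2 weeks replicate 2, 900 values lay above their own upper bound, beside 299 to 461 in the other libraries. Its depth by these bounds is thus uncertain. CYP1B1, a known target of AHR, the aryl hydrocarbon receptor that smoke activates, stood at 25.99 to 64.8 FPKM in CSC 48 hours, against 5.43 to 7.35 in DMSO 48 hours, and at 53.8 to 72.1 in CSC 2 weeks, against 9.96 to 12.6 in DMSO 2 weeks. Of 5 markers of an epithelial line, KRT7, KRT8 and KRT18 were high in every library, at 573 to 1765 FPKM. KRT19 stood at 24.4 to 49.3, and EPCAM was low, at 2.59 to 8.15. The 5 summed to between 2121 and 4905, made up mostly of KRT7, KRT8 and KRT18. Of 9 alveolar type II markers, 1 was expressed enough to be tested, ABCA3 at 8.93 to 12.4 FPKM, while SFTPC reached at most 0.157 and NKX2-1 at most 0.0566. Of 7 fibroblast markers, COL1A1 was tested, at 3.73 to 11.5 FPKM, while COL1A2 and DCN were listed at 0 in all 11 libraries. Of 6 leukocyte markers, CD68 (3.81 to 7.24) and CD14 (0.676 to 3.76) were tested, while PTPRC reached at most 0.0282. The 5 endothelial markers summed to at most 0.0681.

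A library that stands apart bears on these genes in particular. CSC 48 hours replicate 3 held the highest value of its group for 10 of the 10 junction genes, while over all 12506 tested genes it was the highest of its group in 43.2%. CSC 2 weeks replicate 2, the deepest library by the authors' bounds, was the highest of its group for 7 of the 10, against 19.9% of all tested genes. Results that 1 library moves by a large factor are given below with the value without it. Nothing in the labels states that replicates came from separate cultures, so the p-values reflect the spread among these libraries alone, possibly a technical one. In bulk RNA, fewer cells of a type and less RNA per cell cannot be told apart.

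Tight junctions seal the space between neighbouring epithelial cells and set which ions and how much water pass through it. Claudins form the strands of the junction: some, such as CLDN1 and CLDN3, are known to seal, while CLDN2 forms channels that pass small cations and water. The strands also hold occludin (OCLN) and junctional adhesion molecule A (F11R), and are tied to actin by scaffold proteins such as ZO-1 (TJP1). E-cadherin (CDH1) joins cells at the adherens junction just below, and its loss is a usual sign of a shift towards a mesenchymal state. In airway and alveolar epithelium these proteins maintain the barrier that smoke meets first, and CLDN2 is known to be made by lung adenocarcinoma lines, A549 included.

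The sequence before the start sites of CLDN2 and CLDN1 is shown because these are the most abundant claudins in A549 and CLDN2 is the junction gene that passed the test. The sequences are RefSeq's (table build GRCh38.p14), and each was found once on its gene's chromosome in hg19, the build of the deposited loci. CLDN2 lies on chromosome X at 106143394 to 106174091 in the authors' table and has start sites 18196 bases apart in the RefSeq table. CLDN1 lies on chromosome 3 at 190023490 to 190040235. Of the other claudins, CLDN3 (73183327 to 73184600), CLDN4 (73245193 to 73247015) and CLDN12 (90032648 to 90045268) lie on chromosome 7, the first pair close together, and CLDN7 on chromosome 17 (7163222 to 7166512). TJP1 lies on chromosome 15 (29992357 to 30114706), OCLN on 5 (68788119 to 68853931), F11R on 1 (160965001 to 160991133) and CDH1 on 16 (68771195 to 68869444). The 250 bases before each start are printed 5′ to 3′ on the strand of the gene, in lower case, from chrX:106143144-106143393 (plus strand), chrX:106161340-106161589 (plus strand) and chr3:190040236-190040485 (minus strand). Capitals mark GCGTG, the core of the AHR response element, and GGGCGG, the GC box, on either strand.
CLDN2 upstream start: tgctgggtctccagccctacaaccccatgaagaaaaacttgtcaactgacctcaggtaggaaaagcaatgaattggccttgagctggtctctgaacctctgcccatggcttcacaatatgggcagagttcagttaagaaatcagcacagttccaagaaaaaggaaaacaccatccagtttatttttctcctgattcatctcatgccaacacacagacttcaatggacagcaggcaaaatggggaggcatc
CLDN2 downstream start: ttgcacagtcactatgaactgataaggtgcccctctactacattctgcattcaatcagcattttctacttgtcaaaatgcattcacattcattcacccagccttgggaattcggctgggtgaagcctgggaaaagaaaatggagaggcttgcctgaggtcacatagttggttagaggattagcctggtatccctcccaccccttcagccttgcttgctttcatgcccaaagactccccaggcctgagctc
CLDN1 start: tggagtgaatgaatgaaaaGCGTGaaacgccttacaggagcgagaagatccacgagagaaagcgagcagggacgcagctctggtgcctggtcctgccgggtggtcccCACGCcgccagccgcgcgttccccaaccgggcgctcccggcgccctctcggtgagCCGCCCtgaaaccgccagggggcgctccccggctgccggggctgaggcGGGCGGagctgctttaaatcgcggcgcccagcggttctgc
These are unlike stretches of DNA. Over the window of 300 bases that ends 50 bases past each start, CLDN1 held 31 CpG dinucleotides and 67.0% G and C, CLDN2 at its upstream start 1 CpG and 47.3%, and CLDN2 at its downstream start 2 CpG and 51.3%. The median over 35116 windows of the same length was 14 CpG. In the CLDN1 window GCGTG occurred 231 and 143 bases, and GGGCGG 88 and 40 bases, before the start. Neither occurred at the upstream start of CLDN2, and at its downstream start GCGTG occurred 20 bases after the start. GCGTG is in 36.5% and GGGCGG in 44.95% of all windows, and the matches do not overlap. The searches for CAGGTG, an E-box that repressors of epithelial genes can bind, and for TATAAA gave no match in these 3 windows and are met in 20.6% and 11.5% of all windows. Such matches describe letters, not binding.

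CLDN2, the channel-forming claudin, was lower in CSC than in DMSO at 2 weeks and was the junction gene that passed the test there. Falls and rises in CSC are named against DMSO of the same time, not against an earlier level. Its FPKM was 13.3, 17.7 and 11.2 in the CSC 2 weeks libraries, against 30.8, 30.7 and 26.8 in the DMSO 2 weeks libraries. The groups did not overlap, and the highest CSC library stayed well below the lowest DMSO library. The means were 14.1 ± 3.34 in CSC and 29.4 ± 2.28 in DMSO (SD, n = 3 each). The difference was -1.06 ± 0.23 on the log2 scale (SE, 95% interval -1.56 to -0.57; limma on log2(FPKM + 0.5), Benjamini-Hochberg adjusted p = 0.0192 over 12506 genes), or 0.479 times the DMSO level on that scale. Of 9 junction genes tested, 1 was called, where 5.41% of all tested genes were called in either direction and 2.40% lower. Of the same 9, 4 (CLDN2, CLDN3, OCLN and F11R) had an unadjusted p under 0.05, beside 24.6% of all tested genes.

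The fall of CLDN2 was of like size whichever library was left out, between -1.23 and -0.91, but its call was not. The adjusted p was 0.0706 without CSC 2 weeks replicate 1, 0.1005 without CSC 2 weeks replicate 3, and 0.0720, 0.0704 and 0.0574 without DMSO 2 weeks replicates 1, 2 and 3. Without CSC 2 weeks replicate 2, the deepest library by the authors' bounds, it was 0.0110. With no filter on low values, which adds genes to the adjustment, it was 0.0677.

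At 48 hours CLDN2 stood at 11.8, 7.76 and 14.4 FPKM in the CSC libraries, against 13.7 and 22.3 in the DMSO libraries. The groups overlapped there, since CSC replicate 3 exceeded DMSO replicate 2. There the log2 change was -0.65 ± 0.25 (SE, 95% interval -1.20 to -0.10; limma adjusted p = 0.479). It moved to -0.31 without DMSO 48 hours replicate 3, to -0.99 without DMSO 48 hours replicate 2, to -0.41 without CSC 48 hours replicate 2 and to -0.84 without CSC 48 hours replicate 3. The CSC effect at 2 weeks minus that at 48 hours was -0.41 ± 0.34 (95% interval -1.15 to 0.33, adjusted p = 0.793), so the fall is not shown to be larger at the later time.

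**Figure D1:**
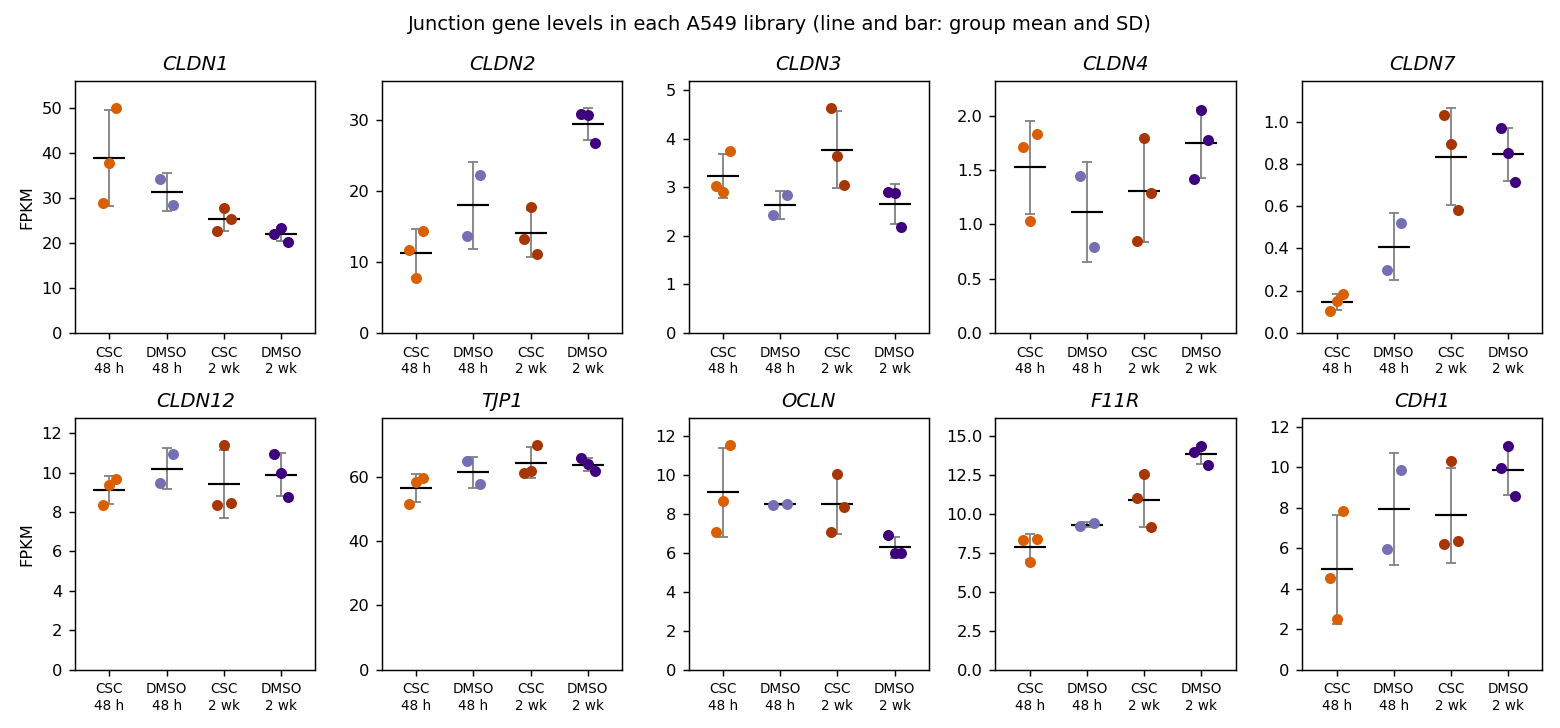
FPKM of the 10 junction genes in each of the 11 libraries (points), with each group's mean (line) and SD (bar); the vertical axes start at 0 and differ between genes. CLDN2 lay at 11.2 to 17.7 in CSC 2 weeks, below the 26.8 to 30.8 of DMSO 2 weeks, while TJP1 stayed between 51.5 and 70.05 throughout.

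CLDN1, a sealing claudin, was the most abundant claudin in 8 of the 11 libraries. It stood at 22.6, 27.9 and 25.3 FPKM in CSC 2 weeks and at 22.1, 23.4 and 20.3 in DMSO 2 weeks, and these values overlapped. Its log2 change was 0.20 ± 0.17 (SE, 95% interval -0.17 to 0.56; limma adjusted p = 0.491), and 0.13 without CSC 2 weeks replicate 2. At 48 hours it stood at 28.9, 37.8 and 50.04 in CSC and at 34.3 and 28.4 in DMSO, again overlapping. That change was 0.28 ± 0.19 (95% interval -0.13 to 0.69; adjusted p = 0.777), and 0.0830 without CSC 48 hours replicate 3, the highest library, 0.15 without DMSO 48 hours replicate 3 and 0.47 without CSC 48 hours replicate 1.

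The balance between both claudins can be read within a library, where scaling cancels. The ratio of CLDN2 to CLDN1 was chosen after these values were seen. It was 0.588, 0.636 and 0.441 in CSC 2 weeks, against 1.40, 1.31 and 1.32 in DMSO 2 weeks. CLDN2 thus exceeded CLDN1 in the 3 DMSO libraries of 2 weeks and in none of the other 8. An exact two-sided permutation test gave p = 0.1, the smallest that 3 against 3 allows, and 0.2 after Benjamini-Hochberg adjustment over 2 times. The values had already been seen to separate the groups, so this p followed from the choice of ratio. It could not have passed the threshold used for calls, and the test therefore decides nothing here. The adjustment covers this ratio alone, and the other ratios and shares within a library were not tested. At 48 hours the ratio was 0.406, 0.205 and 0.287 in CSC, against 0.399 and 0.786 in DMSO (exact permutation p = 0.4, where 0.2 is the smallest possible).

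As a share of the summed FPKM of the 6 claudins, CLDN2 made up 22.4% to 28.0% in CSC 2 weeks, against 43.9% to 44.6% in DMSO 2 weeks. CLDN1 made up 44.0% to 50.8% in CSC 2 weeks, against 31.9% to 33.5% in DMSO 2 weeks. The claudin sum was 49.9 to 63.3 FPKM in CSC 2 weeks, against 60.6 to 69.9 in DMSO 2 weeks, which overlap. At 2 weeks the groups thus overlapped for neither share. At 48 hours CLDN2 made up 13.1% to 21.8% in CSC, against 22.2% to 33.9% in DMSO, which just fail to overlap, and CLDN1 53.7% to 64.1% in CSC, against 43.2% to 55.7% in DMSO, which overlap. A fall of CLDN2 by itself raises the shares of the others, so shares do not count as separate changes.

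CLDN3, another sealing claudin, was low, and did not pass the test. It stood at 4.63, 3.65 and 3.05 FPKM in CSC 2 weeks, against 2.90, 2.88 and 2.19 in DMSO 2 weeks. The groups did not overlap, yet the lowest CSC library and the highest DMSO library were close. The difference was 0.43 ± 0.16 on the log2 scale (SE, 95% interval 0.09 to 0.77; limma adjusted p = 0.125). At 48 hours CSC libraries held 3.03, 2.91 and 3.74 and DMSO libraries 2.44 and 2.83, likewise apart, with a change of 0.25 ± 0.18 (adjusted p = 0.806) that was 0.15 without CSC 48 hours replicate 3 and 0.16 without DMSO 48 hours replicate 2. CSC and DMSO groups did not overlap for 4 of 9 junction genes at 2 weeks (CLDN2, CLDN3, OCLN and F11R), where 30.2% of all tested genes did not, and for 2 of 9 at 48 hours (CLDN3 and F11R), where 22.8% of all did not.

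CLDN12, a claudin that lacks the usual scaffold-binding tail, held 8.37, 11.4 and 8.48 FPKM in CSC 2 weeks and 10.95, 9.97 and 8.76 in DMSO 2 weeks. Its groups overlapped, with a log2 change of -0.08 ± 0.13 (SE, 95% interval -0.37 to 0.21). At 48 hours the change was -0.15 ± 0.15 (limma adjusted p = 0.885, and 0.755 at 2 weeks). Leaving out 1 library in turn, the change at 2 weeks was lowest at -0.22 when CSC replicate 2 was dropped and nearest 0 at -0.0022 when CSC replicate 1 was. The change at 48 hours was -0.25 and -0.0511 without DMSO replicates 2 and 3.

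CLDN4, a claudin that lung epithelium is known to raise on injury, was near the lower end of what could be tested, at 1 FPKM or more in 9 of 11 libraries. It stood at 0.848, 1.79 and 1.29 FPKM in CSC 2 weeks and 1.41, 2.05 and 1.78 in DMSO 2 weeks, overlapping, with a log2 change of -0.34 ± 0.24 (limma adjusted p = 0.402). At 48 hours it stood at 1.71, 1.03 and 1.83 in CSC and 1.44 and 0.790 in DMSO, a change of 0.33 ± 0.27 (adjusted p = 0.832). With 1 library left out in turn, the change at 2 weeks lay between -0.52 (CSC replicate 2 dropped) and -0.14 (CSC replicate 1 dropped). The change at 48 hours was 0.22 and 0.52 without CSC replicates 3 and 2, and 0.0359 and 0.63 without DMSO replicates 3 and 2. CLDN4 had the smallest p of the 9 for the difference between these effects, -0.67 ± 0.36 (95% interval -1.45 to 0.11; limma adjusted p = 0.722).

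CLDN7, a claudin of many simple epithelia, reached 1 FPKM in only 1 library and was not tested. Its mean was 0.834 ± 0.229 in CSC 2 weeks and 0.844 ± 0.126 in DMSO 2 weeks (SD, n = 3 each). At 48 hours it was 0.146 ± 0.038 in CSC (n = 3) and 0.409 ± 0.159 in DMSO (n = 2). The 6 libraries of 2 weeks, at 0.582 to 1.03, lay above the 5 of 48 hours, at 0.106 to 0.521. All lie near the floor: the authors' lower bound was 0 in each CSC 48 hours library and in DMSO 48 hours replicate 2. Their bounds also overlap between times, at 0.0710 to 1.00 in DMSO 48 hours replicate 3 and 0.125 to 1.08 in CSC 2 weeks replicate 3. In a fit without the filter on low values, DMSO at 2 weeks against 48 hours gave 0.57 ± 0.17 on the log2 scale (limma adjusted p = 0.215).

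OCLN and F11R, the other strand proteins, lay on opposite sides of DMSO at 2 weeks without passing the test. OCLN, which helps to regulate the barrier, held 7.04, 10.1 and 8.32 FPKM in CSC 2 weeks, against 6.89, 5.97 and 5.97 in DMSO 2 weeks. The groups did not overlap, though the lowest CSC library nearly touched the highest DMSO library. Its log2 change was 0.39 ± 0.16 (SE, 95% interval 0.04 to 0.75; limma adjusted p = 0.164). At 48 hours OCLN stood at 7.07, 8.67 and 11.5 in CSC and 8.46 and 8.48 in DMSO, a change of 0.07 ± 0.18 (adjusted p = 0.965) that was -0.11 without CSC 48 hours replicate 3 and 0.23 without CSC 48 hours replicate 1. OCLN is known to have a partial copy elsewhere on its chromosome, and how reads shared between copies were counted is not given in the sources used here.

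F11R, which also marks the surface of platelets and leukocytes, held 11.001, 12.6 and 9.14 FPKM in CSC 2 weeks, against 14.0, 14.4 and 13.2 in DMSO 2 weeks. All CSC libraries were below all DMSO libraries. The difference was -0.34 ± 0.12 on the log2 scale (SE, 95% interval -0.60 to -0.08; limma adjusted p = 0.114), and -0.44 without CSC 2 weeks replicate 2, where it passed (adjusted p = 0.0321), but -0.22 without CSC 2 weeks replicate 3 (adjusted p = 0.351). At 48 hours F11R stood at 8.31, 6.95 and 8.41 in CSC, against 9.21 and 9.43 in DMSO, also apart, with a change of -0.23 ± 0.14 (adjusted p = 0.724) that was -0.15 without CSC 48 hours replicate 2. The ratio of OCLN to F11R within a library was 0.640 to 0.911 in CSC 2 weeks, against 0.416 to 0.493 in DMSO 2 weeks. The ratio at 48 hours was 0.851 to 1.37 in CSC, against 0.900 to 0.919 in DMSO, which overlap. This ratio and the others within a library were chosen after values were seen.

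TJP1, the ZO-1 scaffold, was the most abundant of the 10 in every group, and its interval at 2 weeks was the narrowest. It held 61.2, 62.0 and 70.05 FPKM in CSC 2 weeks and 65.8, 64.0 and 61.7 in DMSO 2 weeks. The difference on the log2 scale was 0.01 ± 0.10 (SE, 95% interval -0.22 to 0.24; limma adjusted p = 0.960), an interval that leaves room for a change of either sign. At 48 hours it held 51.5, 58.3 and 59.7 in CSC and 64.9 and 58.0 in DMSO, overlapping, with a change of -0.12 ± 0.12 (adjusted p = 0.878). Leaving out 1 library in turn gave -0.0504 to 0.0460 at 2 weeks (without CSC 2 weeks replicates 3 and 1) and -0.20 to -0.0404 at 48 hours (without DMSO 48 hours replicates 3 and 2).

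CDH1, which encodes E-cadherin, had the largest SE of the 9 junction genes tested, in both CSC comparisons. It held 6.21, 10.3 and 6.34 FPKM in CSC 2 weeks and 9.99, 11.1 and 8.57 in DMSO 2 weeks. CSC replicate 2 lay inside the DMSO range, so the groups overlapped. Its log2 change was -0.38 ± 0.31 (SE, 95% interval -1.06 to 0.29; limma adjusted p = 0.469), and -0.61 without CSC 2 weeks replicate 2 (adjusted p = 0.224). At 48 hours it held 4.53, 2.51 and 7.83 in CSC and 5.96 and 9.88 in DMSO, with a change of -0.71 ± 0.35 (adjusted p = 0.635) and overlapping groups. That change was -1.07 without CSC 48 hours replicate 3 (adjusted p = 0.155), -0.34 without CSC 48 hours replicate 2 and -0.37 without DMSO 48 hours replicate 3.

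Beside the fall of CLDN2, the epithelial marker list summed to lower levels in CSC libraries than in DMSO libraries at both times. Its FPKM summed to 2925 to 4020 in CSC 2 weeks, against 4261 to 4905 in DMSO 2 weeks, and 2121 to 2441 in CSC 48 hours, against 3013 to 3071 in DMSO 48 hours. At 2 weeks 4 of the 5 changes were negative, and the nearest to the threshold was KRT8 at -0.58 (limma adjusted p = 0.0529). At 48 hours 3 were negative, with KRT8 at -0.65 and KRT18 at -0.59, and 2 positive, EPCAM at 0.48 and KRT19 at 0.44 (adjusted p = 0.190 to 0.610 for these 4). The fibroblast list, of which COL1A1 alone was tested, summed to 7.44 to 9.85 in CSC 2 weeks, against 11.3 to 12.1 in DMSO 2 weeks. The leukocyte list, 2 of 6 tested, summed to 8.30 to 11.1 in CSC 2 weeks, against 7.71 to 7.98 in DMSO 2 weeks. The part of these markers in the CLDN2 result was not tested.

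At 48 hours 0 of the 9 tested junction genes passed the test in either direction (limma), where 0.288% of all tested genes were called. There 1 of 9, CLDN2, had an unadjusted p under 0.05, beside 8.49% of all tested genes. The median log2 change over the 9 was -0.12 at 48 hours and -0.08 at 2 weeks, beside medians over all tested genes of 0.00 and 0.09. In both comparisons 4 of the 9 changes were positive and 5 negative. The CSC comparisons rest on separate DMSO libraries. For the difference between the CSC effects of 2 weeks and 48 hours, 0 of the 9 passed (limma), where 0.0400% of all tested genes were called. An unadjusted p under 0.05 was met by 0 of the 9, beside 7% of all tested genes.

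**Figure D2:**
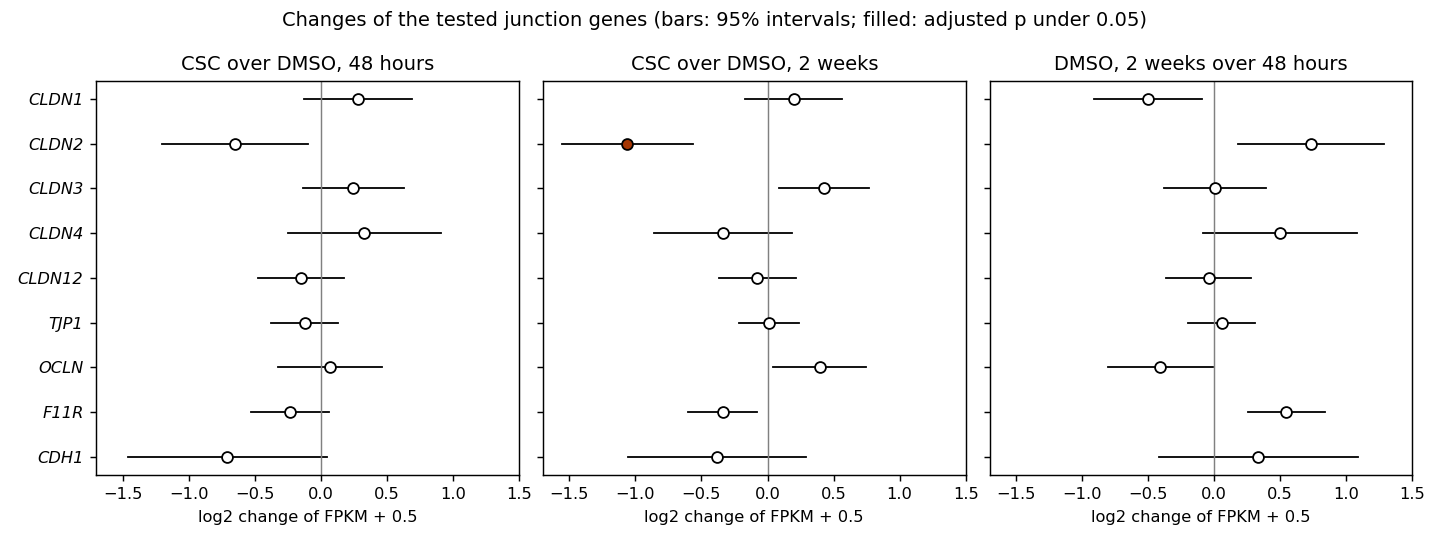
Log2 change of FPKM + 0.5 (horizontal axis) with its 95% interval for the 9 tested junction genes, in CSC over DMSO at 48 hours, CSC over DMSO at 2 weeks, and DMSO at 2 weeks over 48 hours. The filled point, CLDN2 at -1.06 in CSC at 2 weeks, is the one with an adjusted p under 0.05.

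The vehicle groups allow the times to be compared without CSC. Against DMSO at 48 hours, DMSO at 2 weeks had 0 of 9 called (limma), where 0.768% of all tested genes were called. An unadjusted p under 0.05 was met by 4 of 9, beside 12.8% of all tested genes. F11R differed by 0.54 ± 0.14 on the log2 scale, DMSO 2 weeks minus DMSO 48 hours (SE, 95% interval 0.25 to 0.84; limma adjusted p = 0.0941), and CLDN2 by 0.73 ± 0.25 (95% interval 0.18 to 1.29; adjusted p = 0.229). CLDN1 differed by -0.50 ± 0.19 (adjusted p = 0.276) and OCLN by -0.41 ± 0.18 (adjusted p = 0.375). In these 4 of 9 genes the DMSO libraries of 2 weeks lay wholly on 1 side of those of 48 hours, above for F11R and CLDN2 and below for CLDN1 and OCLN, where 36.6% of all tested genes did not overlap. The group means of CLDN2 side by side were 14.1 ± 3.34 in CSC 2 weeks and 29.4 ± 2.28 in DMSO 2 weeks, beside 11.3 ± 3.32 in CSC 48 hours and 18.0 ± 6.12 in DMSO 48 hours (SD, n = 3, 3, 3 and 2). Without DMSO 48 hours replicate 2 the time difference of CLDN2 was 0.39 (adjusted p = 0.742). Markers moved with this contrast too: the 5 epithelial markers all had positive changes, with a median of 0.69, and COL1A1 was called higher at 2 weeks by 1.08 ± 0.17 (adjusted p = 0.0140). Their part in these differences was not tested. This time contrast shares its DMSO libraries with both CSC comparisons, so its values are not independent of them.

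FPKM is scaled by length, which lets the genes be ordered by level. In CSC 2 weeks the order of the means was TJP1, CLDN1, CLDN2, F11R, CLDN12, OCLN, CDH1, CLDN3, CLDN4 and CLDN7. In DMSO 2 weeks it was TJP1, CLDN2, CLDN1, F11R, CLDN12, CDH1, OCLN, CLDN3, CLDN4 and CLDN7. At 48 hours CLDN1 stood before CLDN2 in CSC (38.9 ± 10.6 and 11.3 ± 3.32) and in DMSO (31.4 ± 4.15 and 18.0 ± 6.12). In CSC 2 weeks the neighbours F11R (10.9 ± 1.72), CLDN12 (9.42 ± 1.73), OCLN (8.47 ± 1.52) and CDH1 (7.63 ± 2.34) each differed from the next by less than their SD. In DMSO 2 weeks the same held for CLDN12 (9.90 ± 1.10) and CDH1 (9.87 ± 1.25). The order within that middle group is therefore not settled by these libraries.

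The genes whose profile over the 11 libraries was most like that of CLDN2 were CD38 (an enzyme that degrades NAD), PLA2G4A (a phospholipase that releases arachidonic acid), LRP11, TSPAN13 (a tetraspanin) and SLC12A2 (the sodium, potassium and chloride cotransporter). Likeness was the root mean square difference of mean-centred log2(FPKM + 0.5), which was 0.16 to 0.20 for these 5 and had a median of 0.64 over all tested genes. LRP11 fell at 2 weeks by 0.84 on the log2 scale (limma adjusted p = 0.00560) and TSPAN13 fell by 0.86 (0.0121), the call of TSPAN13 being lost without CSC 2 weeks replicate 3 (0.0554) or DMSO 2 weeks replicates 1 (0.0527) or 2 (0.0510). CD38 had a log2 change of -0.92 (0.0563), PLA2G4A of -0.96 (0.0685) and SLC12A2 of -0.55 (0.167). Among the junction genes, CDH1 ranked 58 in likeness to CLDN2 at 0.30 and F11R 168 at 0.36, of the 12506 tested. CLDN1 and OCLN were among the least like, at ranks 12083 and 11351. CLDN3 ranked 10074 at 0.71, beside the median of 0.64 over all tested genes. All profiles share the same libraries and their depth, so this is a description. CLDN2 was taken for this as the junction gene with the smallest p at 2 weeks. Genes picked for a like profile in the same libraries tend to change likewise there. Their p-values are therefore no separate support.

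Of the wider junction genes, 59 were tested in 6 lists, and at 2 weeks 1 of them rose and 4 fell, where 5.41% of all tested genes were called (17 at an unadjusted p under 0.05, beside 24.6% of all). A further 18 genes in 2 lists of transcription regulators had 2 rises and 2 falls, beside the same 5.41% of all. Of these 18, 8 had an unadjusted p under 0.05, beside the same 24.6% of all. The 2 rises and these 8 include GRHL3, which met the filter of 1 FPKM only through CSC 2 weeks, where it is high. At 48 hours 0 of these 77 genes passed, where 0.288% of all tested genes did (limma; 12 at an unadjusted p under 0.05, beside 8.49% of all). For the difference between times 0 of the 77 passed, where 0.0400% of all did (6 at an unadjusted p under 0.05, beside 7% of all).

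Other membrane proteins of tight junctions included the 2 list genes, LSR and CXADR, whose call at 2 weeks held under all 25 other settings tried. LSR, which marks the corners where several cells meet, held 4.05 ± 0.235 FPKM in CSC 2 weeks and 6.77 ± 0.465 in DMSO 2 weeks (SD, n = 3 each), which is -0.68 ± 0.11 on the log2 scale (SE; limma adjusted p = 0.00541). CXADR, the coxsackievirus and adenovirus receptor, held 5.67 ± 0.898 in CSC 2 weeks and 9.69 ± 0.789 in DMSO 2 weeks, a change of -0.73 ± 0.13 (adjusted p = 0.00634). At 48 hours their changes were 0.05 (adjusted p = 0.966) and -0.38 (0.430). LSR then held 3.88 ± 0.283 in CSC and 3.76 ± 0.669 in DMSO, and CXADR 4.98 ± 0.408 and 6.66 ± 0.968. Of 7 tested in this list of 12, 2 fell and 0 rose, where 2.40% of all tested genes were called lower. The list median was -0.21, beside 0.09 over all tested genes. LSR was also higher in DMSO at 2 weeks than at 48 hours, by 0.78 ± 0.13 (adjusted p = 0.0155), a call lost without DMSO 48 hours replicate 3 (0.167) or DMSO 2 weeks replicates 1 (0.0895) or 2 (0.0779), with no filter (0.0504) and under a common sum of FPKM (0.0662). Of the other claudins 2 of 18 were tested and 0 passed, the smallest p being that of CLDN15, another pore-forming claudin, at -0.25 ± 0.12 (adjusted p = 0.228). Of the plaque and polarity list, 25 of 27 were tested and 1 rose, a share near the 5.41% of all tested genes called. It was PARD6B, a subunit of the polarity complex with atypical protein kinase C, by 0.46 ± 0.10 (adjusted p = 0.0160), to 8.53 ± 0.528 in CSC 2 weeks against 6.04 ± 0.200 in DMSO 2 weeks. The median of that list was 0.03, beside 0.09 over all tested genes.

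In the list of other adherens junction genes, 13 of 17 were tested, and 2 fell at 2 weeks, where 2.40% of all tested genes did. CDH2, N-cadherin, the cadherin of mesenchymal cells, held 26.5 ± 6.83 FPKM in CSC 2 weeks and 47.4 ± 0.756 in DMSO 2 weeks (SD, n = 3 each), a difference of -0.86 ± 0.19 on the log2 scale (SE; limma adjusted p = 0.0198). VCL, vinculin, which links junctions to actin, held 85.7 ± 12.5 in CSC 2 weeks and 131.4 ± 5.03 in DMSO 2 weeks, a difference of -0.62 ± 0.14 (adjusted p = 0.0265). CDH1, which did not pass, was outweighed by CDH2 in every library, and their ratio was 0.258 to 0.304 in CSC 2 weeks, against 0.184 to 0.233 in DMSO 2 weeks. At 48 hours that ratio was 0.0933 to 0.262 in CSC, against 0.152 to 0.355 in DMSO, which overlap. The median of the list was -0.15, beside 0.09 over all tested genes. Desmosome genes (8 of 14 tested) and gap junction genes (4 of 13 tested) had 0 calls, with the smallest p in DSG2, a desmosomal cadherin, at -0.51 ± 0.15 (adjusted p = 0.0694), and PANX1, a channel protein, at -0.49 ± 0.13 (adjusted p = 0.0508).

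Of the 18 regulators, 2 rose and 2 fell at 2 weeks, where 5.41% of all tested genes were called in either direction. Among repressors of epithelial genes (8 of 9 tested), SNAI1, which represses CDH1 and claudins, was lower in CSC by 0.78 on the log2 scale (limma adjusted p = 0.0143). It held 2.15 ± 0.282 FPKM in CSC 2 weeks against 4.05 ± 0.282 in DMSO 2 weeks, beside 1.14 ± 0.289 in CSC 48 hours and 1.95 ± 0.357 in DMSO 48 hours. TWIST2, a repressor of the same kind, rose by 0.82 ± 0.16 (adjusted p = 0.0130), to 11.7 ± 2.18 in CSC 2 weeks against 6.34 ± 0.949 in DMSO 2 weeks. Among activators (10 of 16 tested), HNF4A, a hepatocyte and gut regulator known to promote epithelial genes, was lower in CSC by 0.64 (adjusted p = 0.0151). It held 11.8 ± 0.935 in CSC 2 weeks against 18.7 ± 1.42 in DMSO 2 weeks, beside 6.32 ± 0.345 and 10.6 ± 2.89 at 48 hours. GRHL3, a grainyhead factor of barrier epithelia, rose by 1.28 ± 0.27 (adjusted p = 0.0167) at a low level, to 1.26 ± 0.105 in CSC 2 weeks against 0.233 ± 0.157 in DMSO 2 weeks. GRHL3 met the filter of 1 FPKM only through CSC 2 weeks (1.14 to 1.34), with at most 0.526 in any other group. It was thus tested only because of the group where it is high. At 48 hours HNF4A changed by -0.68 ± 0.15 (adjusted p = 0.0837). In DMSO, HNF4A and SNAI1 were higher at 2 weeks than at 48 hours by 0.82 ± 0.15 (adjusted p = 0.0261) and 0.90 ± 0.18 (adjusted p = 0.0364).

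The calls of these list genes at 2 weeks, other than those of LSR and CXADR, were lost without single libraries and in part under other processing. Without CSC 2 weeks replicate 1 the adjusted p was 0.0833 for CDH2, 0.102 for VCL, 0.0603 for PARD6B, 0.0592 for TWIST2, 0.0585 for SNAI1 and 0.0740 for GRHL3. Without CSC 2 weeks replicate 3 it was 0.0915 for CDH2, 0.109 for VCL, 0.0853 for PARD6B, 0.0613 for TWIST2, 0.0717 for HNF4A and 0.0804 for GRHL3. Without DMSO 2 weeks replicate 1, 2 or 3 it was 0.0711, 0.0680 and 0.0708 for CDH2, 0.0965, 0.0872 and 0.0804 for VCL, and 0.0570, 0.0598 and 0.0776 for PARD6B. SNAI1 and HNF4A lost theirs without DMSO 2 weeks replicate 1 (0.0551 and 0.0713) or 3 (0.0726 and 0.0624), GRHL3 likewise (0.0650 and 0.0817), and TWIST2 without replicate 2 (0.0624). In the time contrast of DMSO, SNAI1 and HNF4A lost their calls without DMSO 2 weeks replicate 1 (0.146 and 0.132), 2 (0.127 and 0.0770) or 3 (0.129 and 0.0911), without DMSO 48 hours replicate 2 (0.0997 and 0.203) and without CSC 2 weeks replicate 3 (0.0562 and 0.0507). SNAI1 also lost its call there without DMSO 48 hours replicate 3 (0.272) and without CSC 2 weeks replicate 1 (0.0507). With no filter, CDH2 (0.0635) and VCL (0.0579) lost their calls at 2 weeks, as did PARD6B under a common sum of FPKM (0.0787) and GRHL3 with a pseudocount of 0.1 (0.0515). In the time contrast, SNAI1 and HNF4A lost theirs with no filter (0.0888 and 0.0731), under a common sum (0.131 and 0.0785) and under quantile normalization (0.114 and 0.0583), and SNAI1 also under median-of-ratios scaling (0.0803) and with a pseudocount of 0.1 (0.0582).

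**Figure D3:**
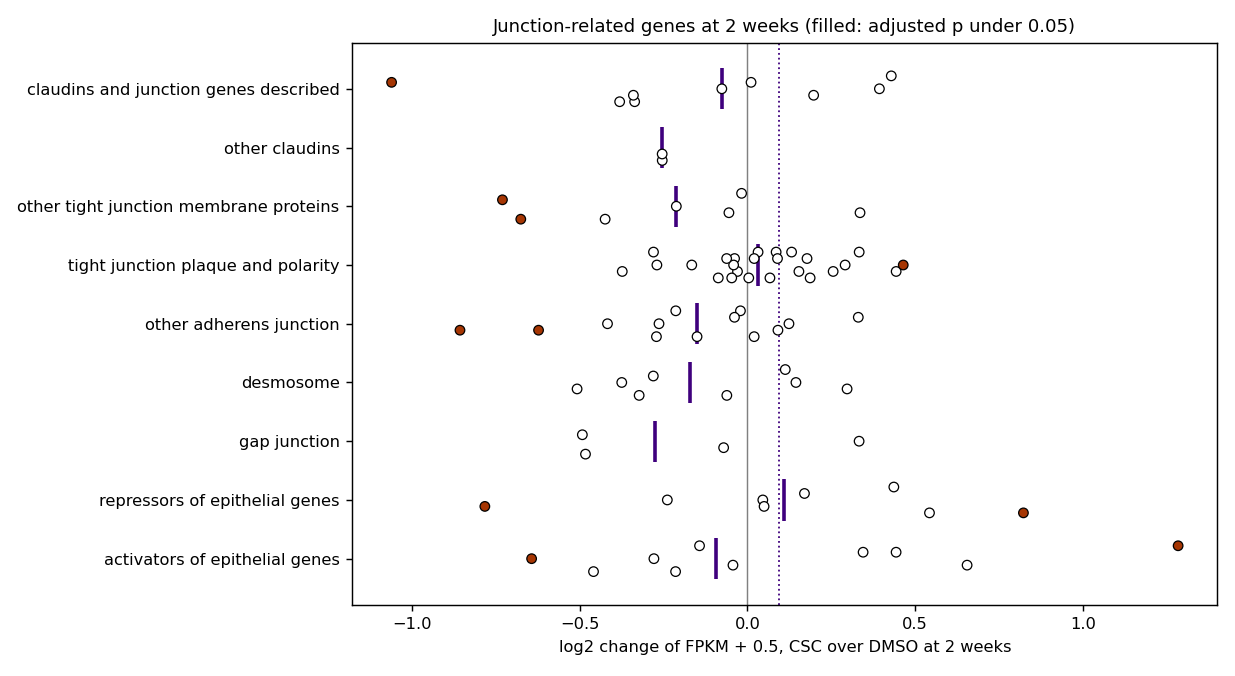
Each point is a gene and shows its log2 change of FPKM + 0.5 in CSC over DMSO at 2 weeks, for the 9 tested junction genes and 8 wider lists (rows). Thick vertical lines are list medians, and the dotted line is the median of all tested genes at 0.09. The filled points, 1 in the first row and 9 in the lists, have an adjusted p under 0.05. Among the 9 is GRHL3, which met the filter only through CSC 2 weeks, where it is high.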

How the data were processed

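RNA from A549 cells was measured in 11 RNA-seq libraries. Per the labels' protocols, a Ribo-Zero Gold kit removed ribosomal RNA and the libraries were sequenced on a HiSeq instrument and aligned to hg19 with TopHat2 version 2.0.9 through BaseSpace, and the submitters' processing notes add CASAVA version 1.7.1a5. The authors deposited 1 FPKM value per gene and locus. The choice of quantifier, annotation, strand setting and scaling was not given in the sources used here, so reads of overlapping antisense genes may not be separated.

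FPKM were summed over loci per symbol (each junction gene had 1 locus), and 1 symbol with a failed estimate was left out. FPKM are not counts, and no whole reads could be recovered, so depth is unknown. Titles gave the groups. Linear models (limma version 3.58.1, R version 4.3.3; eBayes with trend) were fitted to log2(FPKM + 0.5) over all 11 libraries and 4 groups. The 12506 genes with at least 1 FPKM in at least 2 libraries were tested, with calls at a Benjamini-Hochberg adjusted p under 0.05. Differences on this scale understate changes of weakly expressed genes. The fit was run on simulated data with independent noise per gene and changes seeded in both CSC groups. Those data held no shift of a whole library, so they do not test how calls lean on single libraries.

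Named genes were the 10 junction genes, in each wider list the called members (up to 4) or else the 1 with the smallest p at 2 weeks, the 5 genes most like CLDN2, and CYP1B1 as an exposure check. The junction genes, lists and tests were chosen with earlier results of these data known. The alternatives were other pseudocounts, filters, scalings and variance models, library weights, a replicate block, small RNA genes left out, fits of only the libraries compared, and each library left out.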

Additional observations from a re-analysis of the deposited data

How the results depend on the processing

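Depth is unknown, and with 2 or 3 libraries a group each call leans on single libraries. Under 25 other settings, 834 of 883 changes of junction genes kept their direction and their side of the threshold, 6 lost a call, 8 gained 1 and 35 reversed, to values between -0.14 and 0.13. The fall of CLDN2 at 2 weeks ranged from -1.33 to -0.91 (adjusted p 2.29e-05 to 0.1005), and CLDN1, CLDN3, CLDN4, CLDN12, OCLN, F11R and CDH1 kept their sign at 2 weeks. With no filter, 0 junction genes were called at 2 weeks (CLDN2 adjusted p = 0.0677), and 413, 3 and 42 of all genes at 2 weeks, for the difference between times and for DMSO over time, beside 676, 5 and 96 as reported. Library weights, whose iteration did not reach its tolerance, called 4 junction genes at 2 weeks (CLDN2, OCLN, F11R and CDH1) and 2 in DMSO over time (CLDN2 and F11R), with 208, 5580, 84 and 711 of all genes at 48 hours, at 2 weeks, for the difference and for DMSO over time. They gave OCLN -0.14 at 48 hours, and CLDN1 0.13 and CLDN3 -0.0133 for the difference. Fits of only the libraries compared called 3 genes at 48 hours, beside 36 as reported, and 457 in DMSO over time, with 2 junction genes (CLDN1 and F11R). Without the trend, 1 gene was called for the difference. Median-of-ratios, common-sum and quantile scaling brought the median of all genes at 2 weeks from 0.09 to 0.01, -0.04 and 0.02. Median-of-ratios and quantile scaling called 59 and 75 genes at 48 hours, and the 3 scalings called 59, 46 and 60 in DMSO over time. In that order they gave TJP1 -0.0849, -0.13 and -0.0650 at 2 weeks and -0.0365, -0.0617 and -0.12 in DMSO over time, and CLDN3 -0.0744, -0.0964 and -0.0588 in DMSO over time. For the difference, CLDN12 was -0.0040 and -0.10 under the median-of-ratios and common-sum scalings, and TJP1 -0.0526 and -0.00677 under the common-sum and quantile scalings. The causes were not tested.

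Leaving out 1 library in turn gave 0 to 2 called junction genes at 2 weeks, and of all genes 11 to 98 at 48 hours, 230 to 1844 at 2 weeks, 0 to 10 for the difference and 26 to 210 in DMSO over time. The highest counts came without CSC 48 hours replicate 3, except at 2 weeks, where leaving out CSC 2 weeks replicate 2 gave 1844, leaving out CSC 48 hours replicate 3 gave 1118, leaving out CSC 2 weeks replicate 1 or 3 gave 274 or 230, and leaving out a DMSO 2 weeks library gave 239 to 261. Reversals under this were TJP1 at 2 weeks (-0.0504 to 0.0460), OCLN (-0.11 to 0.23) and LSR (-0.11 to 0.21) at 48 hours. For the difference they were CDH1 (-0.0412 to 0.69), CLDN1 (-0.28 to 0.11), CLDN12 (-0.0647 to 0.17) and F11R (-0.21 to 0.0078). In DMSO over time they were CDH1 (-0.0076 to 0.68), CLDN12 (-0.14 to 0.0574), CLDN3 (-0.0854 to 0.12) and TJP1 (-0.0239 to 0.14).

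Replicate numbers were not shown to pair the samples throughout. Of 15 pairs with the same number, 5 had a correlation of deviations over 0.1 (range -0.20 to 0.31, beside -0.22 to 0.28 for other pairs). These 5 were the pairs of replicate 1 (0.19 to 0.31) and those of CSC with DMSO at 48 hours (0.21 and 0.22). At 2 weeks, CSC with DMSO gave -0.15 for replicate 2 and -0.12 for replicate 3. With the replicate number as a block, CLDN2 at 2 weeks was -1.06 (adjusted p = 0.0237) and CLDN3 in DMSO over time -0.0484. The block gained calls for HNF4A at 48 hours (0.0464) and PANX1 (0.0360) and PLA2G4A (0.0359) at 2 weeks, and lost that of SNAI1 in DMSO over time (0.0864). Such gains were not particular to the block. Of the 25 other settings, PANX1 passed at 2 weeks in 11, CD38 in 9, PLA2G4A in 8 and DSG2 in 3. HNF4A passed at 48 hours in 3. In the remaining settings these genes did not pass there.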
